A study of Mus musculus with 6 samples.

Results

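Messenger RNA levels of 10 Notch pathway genes were compared between a mouse lens epithelial line, MV+, and a mouse renal adenocarcinoma line, RAG. The genes were 4 receptors (Notch1, Notch2, Notch3 and Notch4), 3 ligands (Jag1, Jag2 and Dll1), 2 transcriptional targets (Hes1 and Hey1) and 1 enzyme that modifies the receptors (Lfng). They were taken by symbol from a count table of 23284 genes, with no filter on their values, and all 10 were found. The pathway acts between cells in contact. A ligand on 1 cell binds a receptor on its neighbour, and the receptor is then cut by an ADAM protease and by gamma-secretase. The freed intracellular domain enters the nucleus and, with the DNA-binding protein Rbpj and a Mastermind coactivator, turns on genes of the Hes and Hey families, which encode repressors. In the lens, Jag1 and Notch2 are known for maintaining the proliferating epithelium and its fibre cells, and in the developing kidney Notch signalling is known for the patterning of nephron segments.

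Each line was represented by 3 RNA-seq libraries from separate flasks, grown without treatment to about the same density. MV+, which the study calls Pax6-ON, came from a wildtype C57BL6 mouse, and RAG, which it calls Pax6-OFF, came from the BALB/c strain. Each line is 1 established line, so tissue of origin, malignancy and mouse strain cannot be told apart, and p-values measure the spread between flasks. Library totals ranged from 17413045 to 22428230 counts in MV+ and from 28252165 to 43168532 in RAG.

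Pax6, the gene for which the lines were chosen, was counted 1136, 1159 and 1316 times in the MV+ libraries and 0, 0 and 4 times in RAG. Of 12 lens epithelium markers, 5 were over 1 CPM (the count relative to the TMM-scaled library size) in MV+ and 2 in RAG. Both of the latter, Maf and Cryab, were lower in MV+, by log2 fold changes of −1.52 ± 0.07 and −1.08 ± 0.09 (SE; edgeR adjusted p = 2.56e-11 and 2.88e-08). Six3, Sox2 and Prox1 averaged 28.8, 54.7 and 0.817 CPM in MV+ and had 0 counts in RAG. These were called higher in MV+ (edgeR adjusted p = 1.27e-10, 6.97e-13 and 2.47e-06). Foxe3 and Crybb2, a lens regulator and a crystallin, were at 0 in MV+. Cryaa had at most 10 counts in an MV+ library, or 23 over MV+ and 1 over RAG. Of 10 kidney epithelium markers, 6 were over 1 CPM in RAG, where Epcam was at 0 and Cdh1 and Lhx1 had at most 3 counts. All 10 mesenchymal markers were over 1 CPM in MV+, summing to between 5506 and 6390 CPM, and only Vim was in RAG, where the sum ran from 3305 to 3737. Of 8 endothelial markers only Flt1 was over 1 CPM in MV+, while Tie1 was at 0 and Cdh5 had at most 1 count, and the list summed to between 45.8 and 52.3 CPM there and between 3.16 and 3.38 in RAG. In RAG only Esam of the endothelial markers was over 1 CPM, at a mean of 2.64. Neural progenitor markers summed to at most 0.612 CPM in MV+ and at most 0.186 in RAG. Leukocyte markers summed to at most 0.167 CPM in MV+ and to between 6.10 and 7.85 in RAG. There Sfpi1 alone averaged 6.49 CPM, with 0 counts in MV+. Reads of the pancreatic islet genes Ins1, Ins2 and Iapp, picked out after their values were seen, numbered 41, 53 and 57 in MV+ replicate 1, 23, 47 and 32 in replicate 2, and 6, 23 and 4 in replicate 3. Their part in the results was not tested. A fit without MV+ replicates 1 and 2 cannot decide it, because replicate 3 also held such reads and was the only MV+ library left.

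The sequences just before the start sites of the genes that differed are shown because Hes and Hey genes, and Lfng in some tissues, are known to respond to Rbpj. The 250 bases upstream of each start were taken from RefSeq (GRCm38.p6), and 8 of the 10 genes were matched. Hes1 and Hey1 were missing. Both strands were searched for GTGGGAA, the core that Rbpj binds, and for CACGTG, an E-box that proteins of the Hes and Hey class can bind. Of the 8 genes only Lfng (chr5:140607091-140607340, plus strand) held either motif. Its GTGGGAA lay 109 bases and its CACGTG 112 bases before the start, and the 2 motifs overlapped, as shown in capitals. Among 32851 promoters of the same length, 5.42% held GTGGGAA, 6.02% held CACGTG and 0.350% held both. For comparison, the promoters of Jag1 (chr2:137116521-137116770, minus strand), Notch3 (chr17:32166891-32167140, minus strand) and Dll1 (chr17:15375824-15376073, minus strand, the first of 2 annotated starts) are printed without capitals because neither motif was in them. A match is a description of the letters and not a measured site.
Lfng: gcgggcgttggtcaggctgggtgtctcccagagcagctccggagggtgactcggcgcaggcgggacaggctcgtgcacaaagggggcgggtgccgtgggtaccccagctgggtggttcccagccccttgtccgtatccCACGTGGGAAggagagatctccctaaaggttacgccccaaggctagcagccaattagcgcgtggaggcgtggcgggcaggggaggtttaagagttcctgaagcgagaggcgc
Jag1: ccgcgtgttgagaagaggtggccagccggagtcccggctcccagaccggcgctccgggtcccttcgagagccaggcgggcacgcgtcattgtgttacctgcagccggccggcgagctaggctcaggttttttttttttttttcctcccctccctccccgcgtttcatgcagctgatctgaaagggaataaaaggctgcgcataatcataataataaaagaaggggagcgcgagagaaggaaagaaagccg
Notch3: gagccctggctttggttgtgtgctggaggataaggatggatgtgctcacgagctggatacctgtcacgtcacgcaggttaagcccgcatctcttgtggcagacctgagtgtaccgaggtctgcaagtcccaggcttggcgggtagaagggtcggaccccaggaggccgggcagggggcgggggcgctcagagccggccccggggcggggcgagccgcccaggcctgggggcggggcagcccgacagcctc
Dll1: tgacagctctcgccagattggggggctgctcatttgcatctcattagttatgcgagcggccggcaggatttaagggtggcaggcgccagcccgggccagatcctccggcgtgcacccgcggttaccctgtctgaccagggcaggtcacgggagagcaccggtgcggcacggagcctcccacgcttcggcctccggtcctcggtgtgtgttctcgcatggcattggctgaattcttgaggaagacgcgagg

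Of the 10 genes, 5 were higher in MV+ (Notch3, Jag1, Hes1, Hey1 and Lfng), 1 was lower (Dll1) and 4 were not called (Notch1, Notch2, Notch4 and Jag2). Calls were made at a Benjamini-Hochberg adjusted p under 0.05 in edgeR's quasi-likelihood test over 12965 genes, with no block for the replicate number. With that block Notch1 was called as well (edgeR adjusted p = 0.0444). All 10 genes passed the filter on low counts. These lines differ at most genes: 79.3% of genes tested were called, 40.4% as higher and 38.9% as lower in MV+, so the count of 6 of 10 is not a high one. Of the 10 genes, 6 were called with a difference of more than 1 on the log2 scale, as were 35.2% of all genes tested. The libraries of the lines did not overlap for the same 6 genes, against 80.6% of all genes tested. The median log2 fold change (MV+ minus RAG) was 2.18 over the 10 genes and 0.03 over all genes tested. No gene lay near 2.18, which is the midpoint between Jag2 at 0.29 and Jag1 at 4.07. The 10 genes were chosen with earlier results of these data known, so the medians are no test of the group. The plot of CPM by library shows the 10 genes in order of role.

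**Figure D1:**
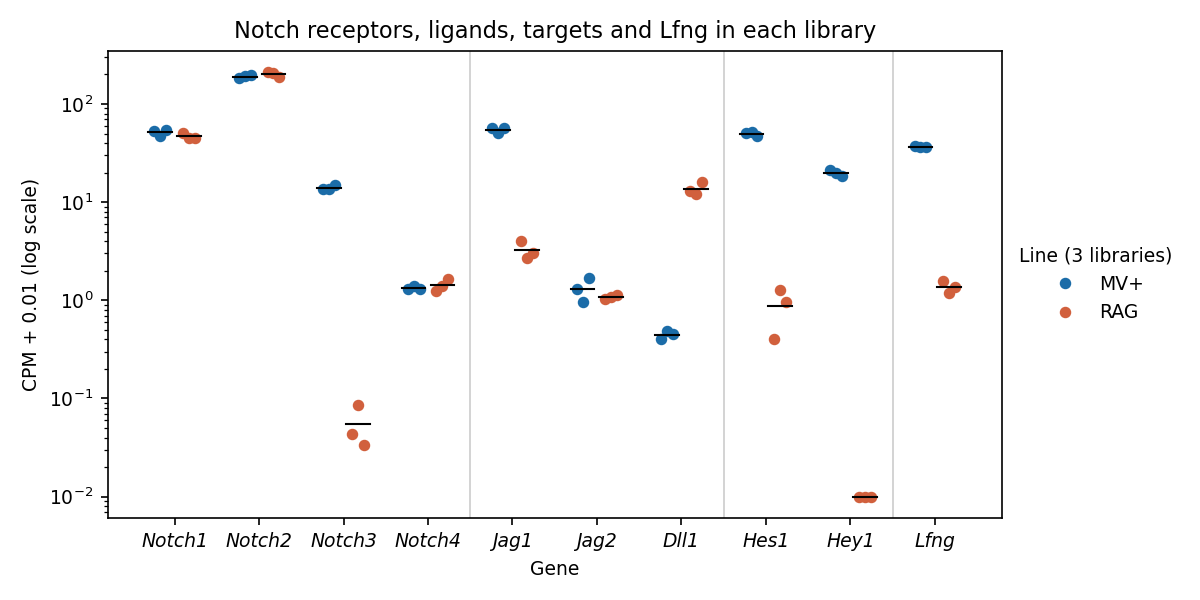
Level of each gene in each of the 6 libraries, as CPM + 0.01 on a log axis, with MV+ in blue, RAG in orange and a black line at the mean of the 3 libraries. Notch1, Notch2, Notch4 and Jag2 lie at like levels in both lines, Dll1 lies higher in RAG, and Hey1 has 0 counts in every RAG library and is drawn at 0.01.

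Among the receptors, Notch3 separated the lines. Notch3 (mm9 chromosome 17, 32257838-32303797, minus strand, 33 exons), a receptor known from pericytes and vascular smooth muscle, stood at 13.7, 13.5 and 15.02 CPM in the MV+ libraries. In RAG it had 1, 2 and 1 counts, or 0.033, 0.077 and 0.023 CPM. The RAG libraries thus held 4 Notch3 reads in all, against 899 in MV+. The difference was 8.30 ± 0.24 on the log2 scale (SE; edgeR adjusted p = 5.11e-14). With so few counts in RAG the ratio is better read from the totals, which gave 352-fold with a counting interval from 137 to 1294. Of the 10 mesenchymal markers, 9 were also called higher in MV+, as were 40.4% of all genes tested. Vim, the most abundant in RAG, was not called (log2 fold change −0.14, edgeR adjusted p = 0.0692). The part of these markers in the Notch3 difference was not tested. In bulk RNA, fewer cells that express a gene and less RNA per cell cannot be told apart.

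Notch1 and Notch2, receptors of many epithelia, were expressed at similar levels in both lines. Notch1 (chromosome 2, 26313422-26359342, minus strand, 34 exons) stood at 52.8, 47.5 and 54.8 CPM in MV+ and at 50.2, 45.5 and 45.3 CPM in RAG, so the libraries overlapped. Its log2 fold change was 0.14 ± 0.08 (SE), with a 95% interval from −0.03 to 0.30 and an edgeR adjusted p of 0.116. With the replicate number as a block the log2 fold change was 0.14 and the adjusted p 0.0444, and without MV+ replicate 2 they were 0.19 and 0.0488. On the FPKM scale (counts per kilobase of exon, scaled to the library total by the authors) Notch1 was at 5.75, 5.34 and 6.33 in MV+ and at 4.75, 4.42 and 4.76 in RAG, which did not overlap. On that scale the median of all genes moved by 0.17 (log2) toward MV+, more than the difference of 0.14 itself. The Notch1 call thus changed with the block, with 1 library and with the scaling.

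Notch2 (chromosome 3, 97817461-97954290, plus strand, 34 exons) stood at 184, 193 and 195 CPM in MV+ and at 212, 209 and 190 CPM in RAG. The highest MV+ library lay above the lowest RAG library. Its log2 fold change of −0.10 ± 0.07 was not called (SE; 95% interval −0.24 to 0.05; edgeR adjusted p = 0.201), and the value was 0.083 on the FPKM scale with limma, so no direction was established. Notch4 (chromosome 17, 34701240-34725488, plus strand, 30 exons), a receptor known from endothelium, was low in both lines. Its counts were 23, 29 and 32 in MV+ and 37, 36 and 70 in RAG, or 1.28, 1.38 and 1.30 CPM against 1.22, 1.38 and 1.63. Between the lines it differed by a log2 value of −0.11 ± 0.21 (SE; 95% interval −0.56 to 0.34; edgeR adjusted p = 0.636), and 0.019 without RAG replicate 3.

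Read per length, the receptors kept the same order at the top in both lines. In MV+ the mean FPKM was 19.3 ± 1.17 for Notch2, 5.81 ± 0.496 for Notch1, 1.89 ± 0.158 for Notch3 and 0.213 ± 0.0118 for Notch4 (SD, n = 3). In RAG it was 18.2 ± 0.149 for Notch2, 4.65 ± 0.192 for Notch1, 0.201 ± 0.0405 for Notch4 and 0.00518 ± 0.00325 for Notch3. No neighbours in either order overlapped. Notch2 was thus the most abundant receptor message in both lines, at 3.14, 3.66 and 3.22 times Notch1 in the MV+ libraries and 3.81, 4.15 and 3.79 times in RAG. It made up 71.0% ± 1.45 of the summed receptor FPKM in MV+ and 78.9% ± 0.826 in RAG. Notch1 made up 21.3% ± 1.31 and 20.2% ± 0.792. Notch3 was the third receptor in MV+, at 6.93% ± 0.216, and the last in RAG, at 0.0225% ± 0.0142. The summed receptor FPKM was 27.2 ± 1.61 in MV+ and 23.02 ± 0.0527 in RAG, on a scale where the median of all genes also lay 0.17 (log2) further toward MV+.

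**Figure D2:**
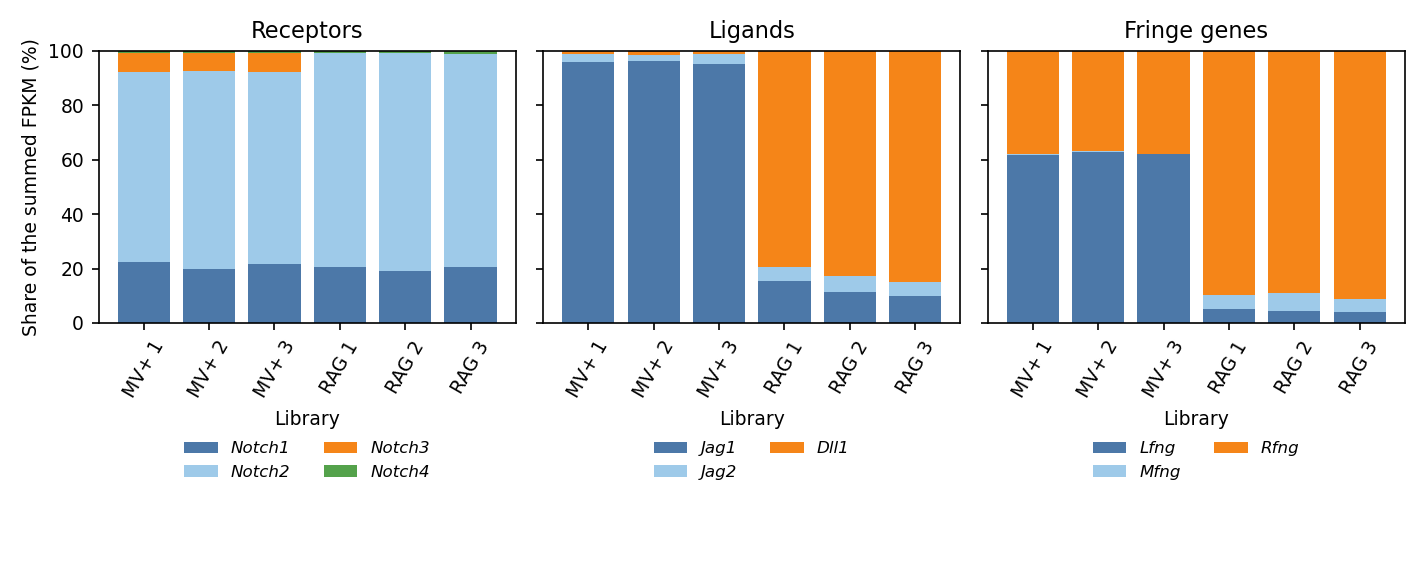
Share of each gene in the summed FPKM of its group (%) in each library, for the 4 receptors, for Jag1, Jag2 and Dll1, and for the 3 fringe genes. The receptor bars are nearly alike except for the Notch3 band in MV+, the ligand bars change from Jag1 (95.7% in MV+) to Dll1 (82.3% in RAG), and the fringe bars change from Lfng (62.2% in MV+) to Rfng (90.0% in RAG).

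The ligands changed over between the lines. Jag1 (chromosome 2, 136907187-136942256, minus strand, 26 exons), the Jagged ligand known from lens and nephron, stood at 56.7, 51.0 and 56.8 CPM in MV+ and at 4.02, 2.69 and 3.04 CPM in RAG. Every MV+ library was over 10 times every RAG library. Jag1 was higher in MV+ by 4.07 ± 0.12 on the log2 scale (SE; edgeR adjusted p = 6.31e-14), or 16.8-fold. Dll1 (chromosome 17, 15504318-15512787, minus strand, 11 exons), a Delta ligand, went the other way. It had 7, 10 and 11 counts in MV+ and 393, 319 and 691 in RAG, or 0.389, 0.476 and 0.448 CPM against 13.0, 12.2 and 16.0. Its log2 fold change of −4.96 ± 0.20 was called (SE; edgeR adjusted p = 2.11e-12), and the ratio of totals was 32.0-fold higher in RAG with a counting interval from 22.1 to 48.4. Dll1 was the only one of the 10 genes called lower in MV+.

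Jag2 (chromosome 12, 114146801-114167706, minus strand, 26 exons), the other Jagged ligand, was low in both lines. It stood at 1.28, 0.952 and 1.67 CPM in MV+ and at 1.02, 1.07 and 1.11 CPM in RAG, where the narrow RAG range lay inside that of MV+. A log2 fold change of 0.29 ± 0.24 was fitted (SE; 95% interval −0.22 to 0.80; edgeR adjusted p = 0.272). The value was 0.47 without MV+ replicate 2 and 0.040 without MV+ replicate 3, and Jag2 was not called in either fit. Its counts lay between 20 and 48 in a library.

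Per length, Jag1 exceeded Dll1 by 90.8, 66.8 and 79.2 times in the MV+ libraries, and Dll1 exceeded Jag1 by 5.16, 7.30 and 8.45 times in RAG. Of the summed FPKM of the 3 ligands, Jag1 took 95.7% ± 0.609 in MV+ and 12.2% ± 2.78 in RAG, and Dll1 took 1.23% ± 0.193 and 82.3% ± 2.82. Jag2 took 3.05% ± 0.682 and 5.47% ± 0.589. The summed ligand FPKM was 11.1 ± 0.812 in MV+ and 4.59 ± 0.80 in RAG. The lines thus differed more in which ligand they expressed than in the sum.

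Lfng separated the lines as widely. Lfng (chromosome 5, 141083295-141091499, plus strand, 8 exons) encodes lunatic fringe, a glycosyltransferase that extends O-fucose on the receptors and is known to favour their response to Delta over Jagged ligands. It stood at 37.7, 36.1 and 36.1 CPM in MV+ and at 1.55, 1.19 and 1.37 CPM in RAG. The spread within each line was small beside the gap, and Lfng was higher in MV+ by 4.73 ± 0.11 on the log2 scale (SE; edgeR adjusted p = 5.54e-15), or 26.5-fold. Lfng was thus high in the line with Jag1 and low in the line with Dll1. Of the other fringe genes, Mfng (manic fringe) stood at 0.111, 0.0952 and 0.122 CPM in MV+ and at 1.22, 1.5 and 1.32 CPM in RAG, with a log2 fold change of −3.55 ± 0.36 (SE; edgeR adjusted p = 2.04e-07). Rfng (radical fringe), added after its values were seen to complete the family, was at 21.5, 19.6 and 20.4 CPM in MV+ and 25.2, 22.8 and 28.9 CPM in RAG. Its log2 fold change was only −0.33 ± 0.10 (SE; edgeR adjusted p = 0.00567), and its FPKM overlapped between the lines. The summed FPKM of the 3 fringe genes was 27.4 ± 0.603 in MV+ and 12.7 ± 2.0 in RAG. Lfng made up 62.2% ± 0.645 of it in MV+ and 4.48% ± 0.575 in RAG, where Rfng made up 90.0% ± 1.11.

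Both targets were expressed in MV+ and nearly silent in RAG. Hes1 (chromosome 16, 30065443-30067882, plus strand, 4 exons), a repressor that many cell types induce through Notch, stood at 50.4, 52.2 and 47.2 CPM in MV+ and at 0.396, 1.27 and 0.952 CPM in RAG. RAG replicate 1 had 12 counts, fewer than the 33 and 41 of the other RAG libraries. On the log2 scale Hes1 was higher in MV+ by 5.84 ± 0.20 (SE; edgeR adjusted p = 4.23e-10), or 57.4-fold, and ranged from 5.53 to 6.11 as single libraries were left out. Per length Hes1 was the most abundant of the 10 genes in MV+, at 36.6 ± 1.53 FPKM (SD, n = 3), above 83.3% of genes tested. In RAG it was at 0.568 ± 0.290 FPKM, above 17.0% of them. Hes1 is also known to respond to signals other than Notch.

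Hey1 (chromosome 3, 8663359-8667038, minus strand, 5 exons), a repressor known as a Notch target in vessels and other tissues, had 382, 416 and 453 counts in MV+, or 21.2, 19.8 and 18.4 CPM. It had 0 counts in all 3 RAG libraries, each deeper than any MV+ library. Against 3 counts summed over RAG, Hey1 was at least 653-fold higher in MV+ (edgeR adjusted p = 2.88e-13). It was the only one of the 10 genes with no read in a line. The plot of log2 fold changes sets these differences side by side.

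**Figure D3:**
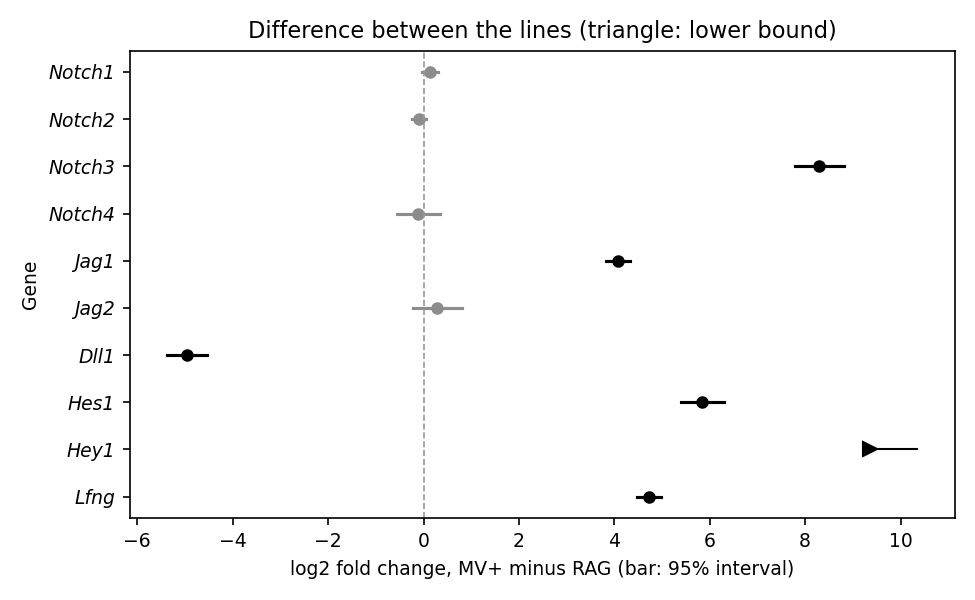
Log2 fold change (MV+ minus RAG) of each gene from edgeR, with its 95% interval, in black where called and in grey where not. Notch3, Jag1, Hes1 and Lfng lie between 4.07 and 8.30, Dll1 lies at −4.96, the 4 grey genes lie within 0.29 of 0, and the triangle for Hey1 is the lower bound against 3 counts, with no upper limit.

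The rest of the pathway was read from 72 genes in 8 lists by role, of which 61 were tested. Of these, 22 were higher in MV+, 23 were lower and 16 were not called, a share called of 73.8% beside 79.3% of all genes, with a median log2 fold change of −0.04. As a whole the pathway was therefore called no more often than other genes. Differences beyond 2 on the log2 scale sat in a few genes of some roles and in none of others. Of each list, the called genes named are among those with the largest differences in each direction, up to 2.

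Among other ligands, only Dlk2 of 5 was tested. Dlk2, a Delta-like protein described as a modulator of Notch, stood at 4.39, 5.00 and 8.22 CPM in MV+ and at 0.165, 0 and 0.163 CPM in RAG (log2 fold change 5.58 ± 0.45, SE; edgeR adjusted p = 1.22e-06). Its exons share positions with Abcc10, and reads in the shared part were left out. Dll4, the Delta ligand known from vessels, had 5 counts over all MV+ libraries and 1 over RAG. Dll3, Dlk1 and Dner were also below the filter.

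The genes for ubiquitination and endocytosis of ligands were 2 higher, 2 lower and 2 not called of 6. Neurl1b, an E3 ubiquitin ligase of the Neuralized family that acts on ligands, stood at 24.2, 25.6 and 27.5 CPM in MV+ and at 720, 789 and 786 CPM in RAG. This was a log2 fold change of −4.89 ± 0.08 (SE; edgeR adjusted p = 1.11e-16), or 29.6-fold higher in RAG, the line with Dll1. Its relative Neurl1a went the other way at a far lower level, at 1.78, 1.76 and 1.47 CPM in MV+ and 0.132, 0.0767 and 0.279 CPM in RAG (log2 fold change 3.17 ± 0.34, SE; edgeR adjusted p = 3.63e-07). Mib1, the ligase of the Mindbomb family needed by both Delta and Jagged ligands, differed little (0.51 ± 0.07, SE; edgeR adjusted p = 5.93e-06). Epn1, an endocytic adaptor, had a log2 fold change of −0.26 ± 0.08 (SE; edgeR adjusted p = 0.00566), a call that was lost without MV+ replicates 1 and 2 (−0.22; adjusted p = 0.0747) and on the FPKM scale.

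Receptor glycosylation counted 3 higher, 3 lower and 2 not called of 8. Poglut1, which adds O-glucose to the EGF repeats of the receptors, stood at 56.8, 62.6 and 58.9 CPM in MV+ and at 0.297, 0.384 and 0.348 CPM in RAG. Its 34 counts over the 3 RAG libraries stood against 3785 in MV+, a ratio of totals of 174 with a counting interval from 124 to 252 (log2 fold change 7.42 ± 0.13, SE; edgeR adjusted p = 1.34e-16). Among these 61 genes only Hey2, with 0 counts in RAG, had a larger fitted log2 fold change than Poglut1. Other glycosyltransferase genes of this list moved less. A130022J15Rik, which RefSeq lists as a synonym of Eogt, had a log2 fold change of 1.08 ± 0.09 (SE; edgeR adjusted p = 1.84e-08), and AI480653, a synonym of Xxylt1, of −0.66 ± 0.07 (SE; edgeR adjusted p = 4.07e-07).

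Receptor cleavage counted 2 higher, 5 lower and 3 not called of 10. Psen2, a catalytic subunit of gamma-secretase, was lower in MV+ at 3.0, 4.19 and 3.58 CPM against 8.27, 7.14 and 7.22 (log2 fold change −1.06 ± 0.14, SE; edgeR adjusted p = 4.79e-06). Aph1b, a scaffold subunit, was also lower (−1.80 ± 0.14, SE; edgeR adjusted p = 1.87e-08). Its close copy Aph1c was called the other way at under 1 CPM (2.30 ± 0.41, SE; edgeR adjusted p = 9.17e-05). Reads that align to both copies would have been left out at counting, so both values are uncertain, and the number of such reads was not measured. Ncstn, the subunit that recognises substrates, was higher (0.50 ± 0.06, SE; edgeR adjusted p = 3.71e-06), though part of its exons overlap Copa.

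Receptor turnover and inhibitors counted 3 higher, 5 lower and 2 not called of 10 tested. Numbl, a relative of the Notch inhibitor Numb, was higher in MV+ at 36.2, 35.3 and 39.6 CPM against 14.8, 13.0 and 15.5 (log2 fold change 1.36 ± 0.09, SE; edgeR adjusted p = 1.36e-09). The other differences named were within 0.62 of 0. Dtx3l, a Deltex ligase whose exons partly overlap Parp9, was at 0.62 ± 0.08 (SE; edgeR adjusted p = 3.01e-06). Itch, an E3 ligase of receptors, was at −0.52 ± 0.08 (SE; edgeR adjusted p = 1.94e-05). Dtx4, another Deltex ligase, was at −0.28 ± 0.09 (SE; edgeR adjusted p = 0.0106), and that call was lost without RAG replicate 1 (−0.22; adjusted p = 0.0513) and on the FPKM scale.

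The nuclear activation genes counted 4 higher, 3 lower and 2 not called of 9 tested. Rbpj, the DNA-binding protein of the pathway, stood at 43.1, 40.1 and 35.4 CPM in MV+ and at 40.9, 46.4 and 39.1 CPM in RAG, which overlapped. The log2 difference of −0.09 ± 0.09 was not called (SE; edgeR adjusted p = 0.358), and the value was 0.079 on the FPKM scale. The Mastermind coactivators, by contrast, were divided. Maml1 stood at 72.3, 61.5 and 78.9 CPM in MV+ and at 12.5, 12.9 and 11.5 CPM in RAG (log2 fold change 2.53 ± 0.10, SE; edgeR adjusted p = 1.59e-12). Maml2 was higher in MV+ by a like amount (2.28 ± 0.12, SE; edgeR adjusted p = 5.00e-11). Maml3 was lower in MV+, at 2.73, 2.14 and 2.28 CPM against 12.4, 11.6 and 11.0 (log2 fold change −2.30 ± 0.13, SE; edgeR adjusted p = 2.57e-10). Kat2b, a histone acetyltransferase, was also lower in MV+ (−1.18 ± 0.08, SE; edgeR adjusted p = 9.96e-10).

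The corepressor genes counted 6 higher, 5 lower and 3 not called of 14. Tle3, a Groucho corepressor of Hes proteins, was higher in MV+ (log2 fold change 1.43 ± 0.08, SE; edgeR adjusted p = 2.60e-10). Tle4 and the short family member Aes were lower in MV+. Their log2 fold changes were −1.13 ± 0.10 for Tle4 (SE; edgeR adjusted p = 5.17e-08) and −1.04 ± 0.09 for Aes (SE; edgeR adjusted p = 1.02e-07).

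Of 8 other targets, 3 were tested. Hey2, the relative of Hey1, had 49, 88 and 58 counts in MV+ and 0 in every RAG library, so both Hey genes that were tested had no read in RAG. Hey2 was at least 102-fold higher in MV+ against 3 counts summed over RAG (edgeR adjusted p = 4.71e-08), at a lower level than Hey1, with 1.30 ± 0.406 FPKM beside 9.56 ± 0.395 (SD, n = 3). Nrarp, a feedback inhibitor that Notch induces in many tissues, was not called, though every MV+ library lay slightly above every RAG library. It stood at 17.7, 15.4 and 16.7 CPM in MV+ and at 14.6, 14.5 and 15.3 CPM in RAG (log2 fold change 0.17 ± 0.09, SE; edgeR adjusted p = 0.110). Hes6, which can oppose Hes1, was at 18.3, 19.0 and 21.0 CPM in MV+ and 22.3, 19.8 and 21.1 CPM in RAG (−0.11 ± 0.09, SE; edgeR adjusted p = 0.261). Hes5, a target known from neural progenitors, had 1 count over each line, and Heyl had 0. The targets therefore did not differ by like amounts, as the plot by role shows.

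**Figure D4:**
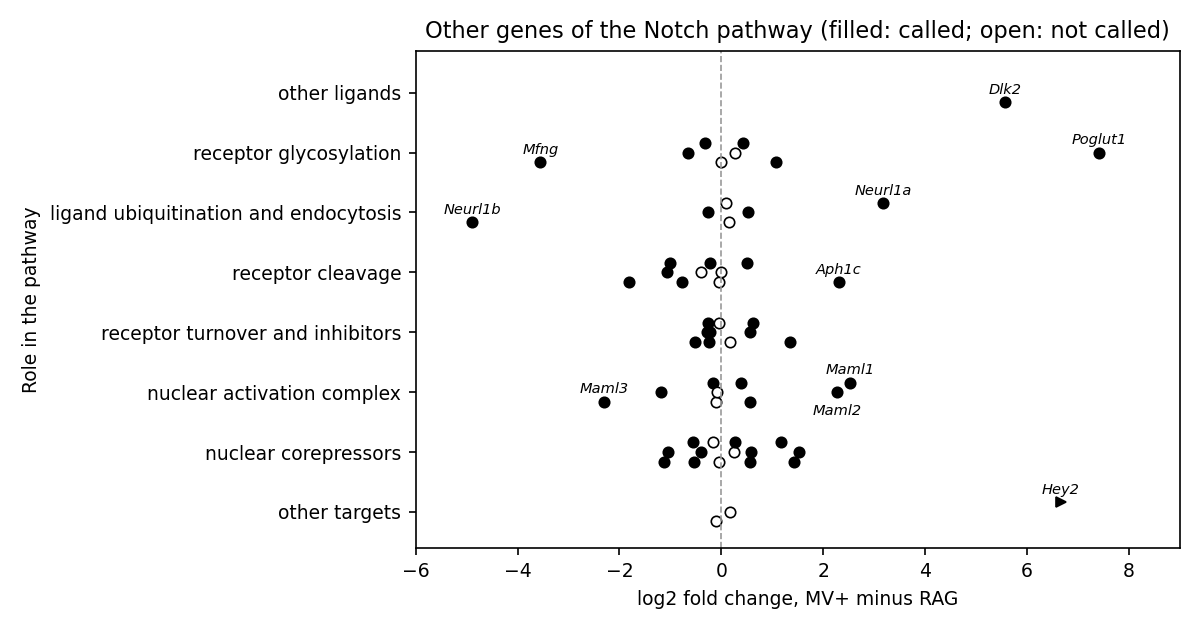
Log2 fold change (MV+ minus RAG) of the 61 other pathway genes tested, 1 row for each role, filled where called and open where not, with genes beyond 2 in either direction named. Poglut1, Hey2 and Dlk2 stand far to the right and Neurl1b and Mfng far to the left, and most genes lie between −2 and 2. The triangle for Hey2 is a lower bound.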

How the data were processed

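Ribosome-depleted total RNA of 3 flasks of MV+ and 3 of RAG was sequenced as single reads with a kit not described as marking strand. The authors aligned reads to mm9 with TopHat2 version 2, used SAMtools 1.6 and counted reads per RefSeq gene with featureCounts 1.5.0-p3 at its defaults, which ignore strand and leave out reads that align to several places or overlap several genes. The deposited counts were raw. The authors computed the deposited FPKM from these counts, gene length and library total, and the values were recovered here to a relative difference of at most 2.73e-15. The 2 tables hold 23284 genes, and 0 columns could not be mapped to a sample.

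Counts were tested with edgeR 4.0.16 (R 4.3.3; TMM normalization, filterByExpr, robust quasi-likelihood test, two-sided, no block), with p-values adjusted over 12965 genes by the Benjamini-Hochberg method at 0.05. The standard error is the log2 fold change over the square root of F. CPM uses TMM-scaled library sizes. The floor used, 3 counts, equals 0.0697 to 0.167 CPM in a library, and bounds and counting intervals (95%, exact) cover counting error only. Replicates differed beyond sampling noise (chi-square per degree of freedom from 8.87 to 92.7), so each counted once. Rn45s, the ribosomal RNA precursor, took 12.4% to 20.1% of counts. Same-numbered libraries of the lines deviated together (correlations 0.434, 0.321 and 0.250, against −0.250 to −0.0522 for other pairs). Deviations were centred within each line, so the negative values are not separate evidence. The numbers were taken as pairing the samples. The main fit does not use this pairing, and its values are the ones reported unless another fit is named. A fit with the replicate block was run as an alternative. Alternatives used DESeq2 1.42.0, limma 3.58.1 on log2(FPKM + 1) or log2(FPKM + 0.1), other normalizations and filters, and each library left out. The fit was tested on simulated data with known changes. Those changes were few and balanced in direction, so they did not test the scaling between lines that differ at most genes.

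All 10 genes are named. Of each list of other pathway genes, up to 2 called genes in each direction with the largest difference are named (where the higher line averaged 1 CPM or more and libraries did not overlap), besides Rbpj and Dll4. Some genes that the rule named are not reported here. Hes6, Nrarp and Rfng were added afterwards. Aph1c, Hes5, Heyl, Dll3, Dlk1 and Dner are also named outside this rule. The genes, lists and rule were chosen with earlier results of these data known.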

Additional observations from a re-analysis of the deposited data

How the results depend on the processing

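The 6 called genes among the 10 kept their direction and call under all 16 alternatives. Over all genes the count called ranged from 10005 to 10137 with a library left out, from 9624 (a filter of 1 CPM in 3 libraries) to 11336 (no filter) in other edgeR fits of all libraries, and was 10475 with DESeq2, 10766 with the replicate block and 9387 without MV+ replicates 1 and 2, an alternative chosen after seeing the data. On the FPKM scale with limma, the share of calls that were higher in MV+ was 60.6% to 61.0%, beside 50.9% with edgeR, and the median of all genes moved by 0.17 to 0.18 (log2). With the replicate block Notch1 was called (0.14; adjusted p = 0.0444) and no other of the 10 genes changed its call. Notch1 was also called with upper quartile normalization (0.22; adjusted p = 0.0189), with limma at a pseudocount of 1 (0.27; adjusted p = 0.0110, or 0.0158 with no filter) and of 0.1 (0.31; adjusted p = 0.0134), and without MV+ replicate 2 (0.19). Uncalled genes changed sign under limma on log2(FPKM + 1), with the filter or with none, and on log2(FPKM + 0.1): Notch2 to 0.083 and 0.087, Notch4 to 0.014 and 0.062, and Rbpj to 0.079 and 0.089. Notch4 ranged from −0.20 to 0.019 with a library left out. The cause was not tested. The calls of Epn1 and Dtx4 were lost under limma, and that of Dtx4 also with upper quartile normalization (−0.20; adjusted p = 0.0599). From counts in place of FPKM, Notch2 was 74.0% of the receptors in MV+ and 80.8% in RAG, Notch3 was 5.46% in MV+, and the order was unchanged. Depth limits the ratios of Notch3, Hey1 and Dll1, with few or 0 counts in 1 line, and the differences of Notch4 and Jag2, with 20 to 70 counts in a library.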

Other observations

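The genes beside Poglut1 were looked up after its values were seen (mm9 chromosome 16, Poglut1 at 38525264-38550266, minus strand). Its near silence in RAG was shared by some neighbours and not by others. On its left, 4930455C21Rik stood at 25.0, 23.4 and 22.6 CPM in MV+ and at 47.3, 47.6 and 52.1 CPM in RAG. Next on that side, Cd80, an immune costimulatory ligand, had 22, 26 and 51 counts in MV+ and 0 in each RAG library. Beyond it, Adprh stood at 36.1, 44.8 and 47.1 CPM in MV+ and at 26.2, 35.5 and 45.2 CPM in RAG and was not called. The nearest gene on its right, Tmem39a, was at 42.9, 43.4 and 41.8 CPM in MV+ and at 36.0, 38.1 and 36.1 CPM in RAG. Further on that side, Arhgap31 had 868, 881 and 1079 counts in MV+ and 0 in each RAG library. After it, B4galt4, a galactosyltransferase, had 283, 321 and 390 counts in MV+ and 0 in each RAG library.

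The same look at Hey1 (chromosome 3) found expressed genes on its right. Mrps28, a mitochondrial ribosomal protein gene, stood at 30.4, 27.3 and 30.0 CPM in MV+ and at 45.5, 41.7 and 45.6 CPM in RAG. Tpd52 stood at 45.3, 44.6 and 40.7 CPM in MV+ and at 146, 166 and 147 CPM in RAG. On its left, Stmn2 had 0 counts in MV+ and 4, 11 and 10 in RAG, and Gm6194 had 45, 72 and 78 counts in MV+ and 106, 85 and 192 in RAG.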
